A study of Mus musculus with 6 samples.

Results

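Genes of histone and protein methyltransferases and demethylases were followed in RNA from mouse colon with chronic colitis and from control colon. Members were the gene rows whose symbol begins with Kdm, Kmt, Setd, Setdb, Nsd, Whsc1 or Prmt and a number or letter, together with Ezh1, Ezh2, Ehmt1, Ehmt2, Suv39h1 and Suv39h2. Rows were taken by symbol, and 51 of 24421 gene rows were members. The list of symbols was chosen with earlier results of these data known. Chronic colitis had been induced with dextran sulfate sodium (DSS), a polymer toxic to the lining of the colon. The 3 DSS samples and the 3 control samples all carried the labels C57BL/6, colon tissue and 7 weeks, and the control group has no other treatment named. Whether each sample is a different mouse is not labelled. The spread behind the p-values is therefore that of the samples and may be technical.

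Methyl groups on histone tails mark chromatin states. Methylation of histone H3 at lysine 4 (H3K4) accompanies active promoters and enhancers, methylation at lysine 36 accompanies transcribed gene bodies, and methylation at lysines 9 and 27 accompanies silent chromatin. SET domain enzymes add these marks to lysine, Prmt enzymes methylate arginine, and Kdm enzymes remove methyl from lysine, the Kdm1 pair as flavin-dependent amine oxidases and the others as iron- and oxoglutarate-dependent JmjC enzymes. Lysine 27 of histone H3 carries either methyl or acetyl, so the enzymes of its methylation stand beside the acetyl mark that the series was set up to study.

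Ezh2 and Kmt2e were the members that rose in DSS colon. Ezh2, the catalytic subunit of Polycomb repressive complex 2 (PRC2) in dividing cells, was at 10.2 ± 1.31 FPKM in DSS against 4.35 ± 1.31 FPKM in controls (SD, n = 3 each, as for all values after ± unless named SE). FPKM are fragments per kilobase of transcript, scaled to the mapped fragments of the library, and log2 differences below are DSS minus control on the log2(FPKM + 1) scale. Kmt2e, a SET domain and PHD finger protein grouped with the H3K4 enzymes by sequence, whose PHD finger binds methylated H3K4 and for which a methyltransferase activity is not established, was at 11.0 ± 1.83 FPKM in DSS against 4.99 ± 0.62 FPKM in controls. Of the 51 members 48 were tested, having at least 1 FPKM in at least 3 samples, and 2 rose and 0 fell (limma on log2(FPKM + 1), Benjamini-Hochberg adjusted p under 0.05 over all genes tested), with 10 members at an unadjusted limma p under 0.05. That is 4.17% of the tested members, against 8.9% of the 12348 genes tested, of which 6.34% rose and 2.56% fell. The share of calls that were higher was 71.2%, and 48.5% under upper-quartile and 52.4% under median-of-ratios scaling, while both members stayed called, higher, in each. At an unadjusted p under 0.05 the shares were 20.8% of members and 28.3% of all genes. The 10 members include Setd1b, which reached the filter through its DSS samples alone. The same 28.3% is the share to set beside the counts at an unadjusted p in each list below. Both genes also passed without DSS 1 and without DSS 2. Without DSS 3 or without any one control sample neither gene passed, and the highest adjusted p in such a fit was 0.108 for Ezh2 and 0.0883 for Kmt2e. Ezh2 also missed the threshold without the filter on low values (adjusted p = 0.0536).

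The promoters of Ezh2, its paralog Ezh1 and Prmt2 are shown. Ezh2 passed the test, Ezh1 is its nearest relative, and Prmt2 had the smallest p of the members that lay lower in DSS. Ezh2 and Prmt2 stood at the ends of the range of differences. A promoter was listed for 40 of the 51 members. Kmt2e, which also passed, is not shown because no promoter was listed for it. Each run is the 300 bases from 250 before to 50 after the annotated start, 5′ to 3′ on the gene's strand, from RefSeq on GRCm38.p6. Ezh2 lies at chr6:47594981-47595280, Ezh1 at chr11:101226414-101226713 and Prmt2 at chr10:76237816-76238115, all on the minus strand. In GENCODE vM21 the Ezh2 gene reaches 47595341, upstream of this window, so the Ezh2 motif positions hold for the RefSeq start. Capitals mark matches to the 5 motifs searched on both strands, which are TTTNGCGC (E2F), CCAAT (NF-Y), GGGCGG (GC box), TGANTCA (AP-1) and TTCNNNGAA (STAT).
Ezh2: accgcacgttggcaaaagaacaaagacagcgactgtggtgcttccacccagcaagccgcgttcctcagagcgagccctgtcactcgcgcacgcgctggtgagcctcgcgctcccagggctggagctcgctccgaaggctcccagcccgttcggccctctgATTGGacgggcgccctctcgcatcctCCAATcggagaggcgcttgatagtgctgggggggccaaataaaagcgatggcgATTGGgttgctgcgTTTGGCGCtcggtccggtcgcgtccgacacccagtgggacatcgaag
Ezh1: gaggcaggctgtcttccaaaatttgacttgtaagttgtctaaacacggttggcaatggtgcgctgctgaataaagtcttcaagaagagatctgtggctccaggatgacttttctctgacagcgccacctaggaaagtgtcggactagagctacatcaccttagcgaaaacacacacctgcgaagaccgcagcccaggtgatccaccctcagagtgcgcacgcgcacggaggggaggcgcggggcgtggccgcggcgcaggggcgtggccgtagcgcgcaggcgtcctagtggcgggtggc
Prmt2: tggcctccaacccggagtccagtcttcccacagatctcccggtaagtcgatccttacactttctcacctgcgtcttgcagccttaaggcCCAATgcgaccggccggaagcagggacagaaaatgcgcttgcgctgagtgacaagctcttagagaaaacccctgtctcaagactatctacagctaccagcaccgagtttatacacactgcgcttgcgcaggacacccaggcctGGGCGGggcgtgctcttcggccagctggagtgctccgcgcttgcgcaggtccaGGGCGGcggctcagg
The Ezh2 promoter held the E2F letters with their first base at position 4 after the start and 3 NF-Y matches, with first bases at -90, -64 and -11, none of which overlapped another match. The Ezh1 window held no match to any of the 5 motifs. In the Prmt2 window there were an NF-Y match at -161 and GC boxes at -18 and 36. E2F letters occurred in 1.38% of the 32841 promoters of this length and in 1 of the 52 promoters listed for 40 matched members, which was that of Ezh2. NF-Y letters occurred in 37.4% of all promoters and 42.3% of member promoters, GC boxes in 35.7% and 67.3%, AP-1 letters in 7.81% and 7.69%, and STAT letters in 8.3% and 5.77%. Member promoters were rich in CpG, with a median of 27.5 per 300 bases against 7 over all promoters. A match is a description of letters and not of binding.

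The H3K27 methyltransferases lay on opposite sides of no difference. PRC2 trimethylates lysine 27 through either Ezh2 or Ezh1, the latter being the form of resting cells. Ezh2 had 9.99, 9.02 and 11.6 FPKM in DSS 1, 2 and 3, against 2.86, 5.33 and 4.87 FPKM in control 1, 2 and 3. All 3 DSS samples lay above all 3 controls, and control 1 was the lowest (log2 difference 1.09 ± 0.23 SE, limma adjusted p = 0.0287). Ezh1 had 7.88, 9.13 and 9.92 FPKM in DSS against 10.1, 11.2 and 11.9 FPKM in controls. Its DSS samples all lay below the controls, as for 9.51% of all genes tested, but the difference did not pass the test (log2 difference -0.27 ± 0.15 SE, adjusted p = 0.287). Within a sample the log2 ratio of Ezh2 to Ezh1 was 0.34, -0.02 and 0.23 in DSS and -1.82, -1.07 and -1.29 in control colon, a difference of 1.58 (two-sided exact permutation test, p = 0.1, which is the lowest value 3 against 3 samples can give, and 0.4 adjusted over 8 pairs). Ezh1 was the more abundant of the pair in each control sample, and Ezh2 was the more abundant in DSS 1 and DSS 3. Ezh2 lies on chromosome 6, 47530139 to 47595341, Ezh1 on chromosome 11, 101191115 to 101226463, in GENCODE vM21 on GRCm38. An Ezh2 exon shares 174 bases with the lincRNA Gm26625 on the other strand, and strand was not recorded.

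**Figure D1:**
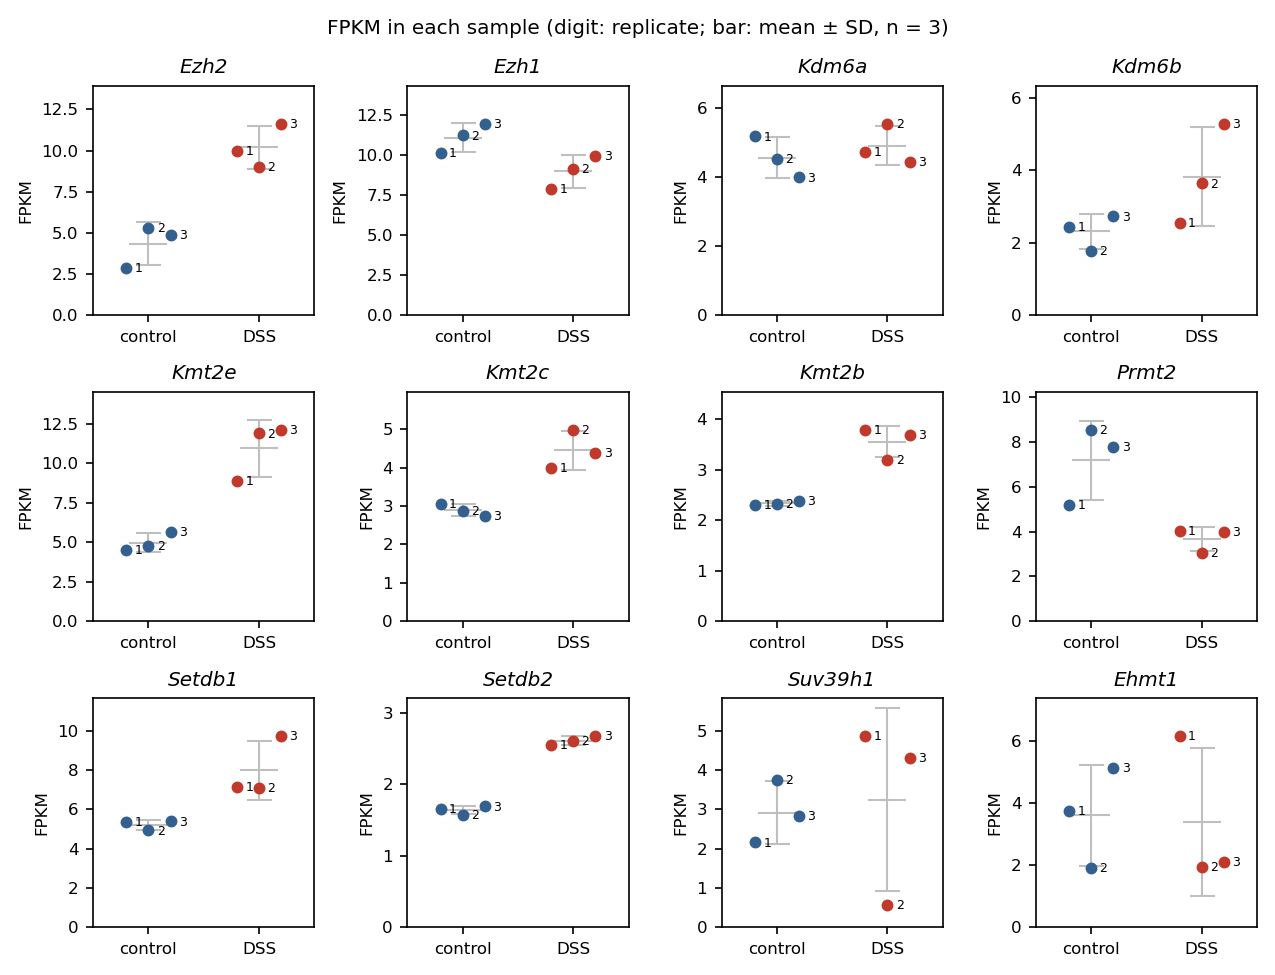
FPKM of 12 members in each sample, control in blue and DSS in red, with the replicate number beside each point and the mean ± SD (n = 3) as a grey bar; each panel has its own vertical axis from 0. Ezh2 and Kmt2e lay higher in every DSS sample than in any control, Prmt2 lay lower, and Suv39h1 in DSS 2, at 0.581 FPKM, lay far below the other samples.

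Of 8 tested PRC2 partners 0 were called, with 3 at an unadjusted limma p under 0.05. All 8 had a log2 difference above 0, as had 7867 of the 12348 genes tested. Their median was 0.29 against 0.13 over all genes tested. With scaling by upper quartile or by median of ratios the median was 0.14 or 0.16, and Rbbp4 and Rbbp7 lay below 0. Suz12, the PRC2 core subunit with the smallest p among the partners and singled out after its values were seen, had 15.2, 15.1 and 15.3 FPKM in DSS against 8.06, 10.8 and 10.2 FPKM in controls (log2 difference 0.61 ± 0.16 SE, adjusted p = 0.0539). Its groups did not overlap, higher in DSS as for 25.6% of all genes tested, and its DSS samples were nearly equal. Eed, the subunit that binds the finished mark, was at 23.4 ± 1.23 FPKM in DSS against 18.7 ± 3.07 FPKM in controls (adjusted p = 0.24).

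Markers of other cells moved between the groups as well, and their part in these differences was not tested. In a piece of tissue, more cells of a type and more RNA per cell cannot be told apart. Of 12 genes of proliferating cells Rrm2, a subunit of ribonucleotide reductase, rose and 0 fell, with a median log2 difference of 0.02. Their summed level was 319, 121 and 251 FPKM in DSS 1, 2 and 3, against between 169.9 and 221 FPKM in the controls. In DSS 2 10 of the 12 were at their lowest of all samples, Mki67 at 3.61 FPKM and Top2a at 2.72 FPKM, against lowest control values of 8.26 and 7.13 FPKM. Ezh2 in that sample was at 9.02 FPKM, its lowest DSS value and above every control. The part of proliferation in the Ezh2 level was not tested. All 7 neutrophil markers rose, with a summed level of 4076 to 6957 FPKM in DSS against 8.996 to 32.1 FPKM in controls. Among 6 general leukocyte markers 3 rose and 0 fell (172 to 348 FPKM summed in DSS and 66.4 to 124 FPKM in controls), and among 9 markers of colonic epithelium 2 fell and 0 rose (8366 to 9899 FPKM and 12520 to 16170 FPKM). All 7 smooth muscle markers had a log2 difference below 0, with a median of -1.01, and 0 were called (5 at an unadjusted limma p under 0.05). Their summed level was 1353 to 3802 FPKM in DSS against 4008 to 5034 FPKM in controls, and DSS 3 lay nearest to the controls. Of 4 tested T cell markers 2 rose (16.0 to 36.4 FPKM summed in DSS and 4.51 to 8.43 FPKM in controls), and of 7 markers of macrophages and monocytes 1 rose (525 to 688 FPKM and 366 to 436 FPKM). Of 6 endothelial markers 1 rose, with summed levels that overlapped between the groups. Among the markers of B and plasma cells, fibroblasts, and enteric glia and neurons 0 were called, with 0, 1 and 1 at an unadjusted limma p under 0.05. The epithelial markers were high in every sample, as the label colon has it. Of the 78 marker genes in the files, 0 were listed at 0 in a whole group and Cd3e was listed at 0 in DSS 3.

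**Figure D2:**
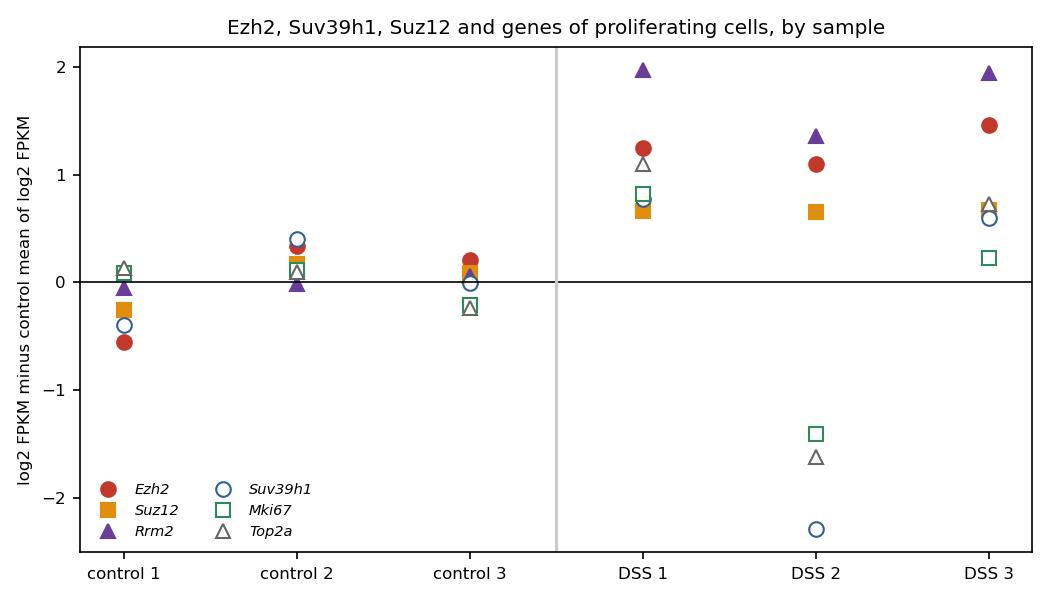
Each point is 1 gene in 1 sample, as log2 FPKM minus the mean log2 FPKM of the 3 controls. Ezh2, Suz12 and Rrm2 (filled) lay above the control mean in all 3 DSS samples, while Suv39h1, Mki67 and Top2a (open) lay above it in DSS 1 and DSS 3 and far below it in DSS 2. Rrm2 was the 1 of 12 proliferation genes that rose, and 10 of the 12 were lowest in DSS 2. The part of proliferation in these differences was not tested.

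The enzymes that remove methyl from lysine 27 did not pass the test. Kdm6b (JMJD3), a demethylase known to be induced in activated macrophages, had 2.56, 3.64 and 5.27 FPKM in DSS 1, 2 and 3, against 2.44, 1.77 and 2.73 FPKM in control 1, 2 and 3. DSS 2 and 3 lay above all controls and DSS 1 within their range (log2 difference 0.52 ± 0.25 SE, adjusted p = 0.218). Kdm6a (UTX), its X-linked relative, was at 4.91 ± 0.557 FPKM in DSS against 4.57 ± 0.595 FPKM in controls (log2 difference 0.09 ± 0.17 SE, adjusted p = 0.776, and -0.06 under upper-quartile scaling). The ratio of Kdm6b to Kdm6a overlapped between the groups (difference of the log2 ratio 0.58, two-sided exact permutation test, p = 0.3), and the difference was 0.25 without DSS 3 and 0.82 without DSS 1. The Y-linked Uty, which the choice by name did not take in, was at 6.24 ± 1.14 FPKM in DSS against 4.58 ± 0.0883 FPKM in controls (adjusted p = 0.222).

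The 8 genes grouped as H3K4 methyltransferases all had a log2 difference above 0, as had 7867 of the 12348 genes tested, and Kmt2e rose. Setd1b was tested only because its 3 DSS samples reached 1 FPKM. All 8 lay above 0 under each of the scalings tried as well. Their median was 0.34, against 0.13 over all genes tested (0.22 against -0.02 under upper-quartile scaling). Of the 8, 4 were at an unadjusted limma p under 0.05, as were 28.3% of all genes tested. Kmt2e had 8.87, 11.9 and 12.1 FPKM in DSS 1, 2 and 3, against 4.51, 4.76 and 5.69 FPKM in control 1, 2 and 3. The lowest DSS value lay well above the highest control (log2 difference 0.99 ± 0.18 SE, limma adjusted p = 0.0183). Kmt2e lies on chromosome 5, 23434441 to 23504235, and its exons share 972 bases with Srpk2 on the other strand, so reads there cannot be assigned. Srpk2, a kinase of splicing factors, was at 3.61 ± 0.653 FPKM in DSS against 2.64 ± 0.693 FPKM in controls (log2 difference 0.35 ± 0.21 SE, adjusted p = 0.313).

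Among the catalytic members of this group, 4 had groups that did not overlap without passing the test, all higher in DSS, as 25.6% of all genes tested were. Kmt2c, which with Kmt2d places the single methyl mark of enhancers, had 3.98, 4.97 and 4.39 FPKM in DSS against 3.06, 2.88 and 2.75 FPKM in controls (adjusted p = 0.105). Kmt2b had 3.78, 3.2 and 3.68 FPKM in DSS against 2.3, 2.32 and 2.39 FPKM in controls (adjusted p = 0.115). Its controls agreed within 0.1 FPKM, and every DSS value was higher. Kmt2a (MLL1), the relative of Kmt2b that keeps Hox genes active, was lower in level, at 1.76 ± 0.216 FPKM in DSS against 1.25 ± 0.216 FPKM in controls (adjusted p = 0.286). Setd1b, which with Setd1a serves the broad trimethyl mark of promoters, had 1.5, 1.44 and 1.45 FPKM in DSS against 0.856, 0.983 and 0.952 FPKM in controls (adjusted p = 0.173). All 3 of its controls lay under 1 FPKM, so Setd1b passed the filter on low values through its DSS samples alone. Its place among members higher in DSS is therefore not independent of the filter. Setd1a was at 2.93 ± 0.619 FPKM in DSS against 2.36 ± 0.0932 FPKM in controls, and its DSS 2 value of 2.25 FPKM lay below the controls. Exons of Setd1a share 3523 bases with the protein-coding Gm49388 on the same strand, and the part of that gene in the value was not tested. Kmt2d, with 1.38 ± 0.231 and 1.13 ± 0.217 FPKM, and Setd7, an enzyme that adds a single methyl to H3K4 and to non-histone proteins, with 6.25 ± 1.43 and 4.7 ± 0.788 FPKM in DSS against control colon, overlapped between the groups.

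Partner proteins of these complexes, some shared and some particular to a few of them, were not called at the RNA level. Of 12 COMPASS partners 0 rose and 0 fell (2 at an unadjusted limma p under 0.05). Their log2 difference was above 0 for 10, as for 7867 of the 12348 genes tested, and their median was 0.22. The median was 0.07 under upper-quartile and 0.09 under median-of-ratios scaling, with 10 above 0 in each. Wdr82, which binds the Setd1 enzymes, had the smallest p, at 23.5 ± 0.892 FPKM in DSS against 16.3 ± 1.09 FPKM in controls (log2 difference 0.50, adjusted p = 0.0593). Wdr5, the scaffold of all these complexes, was at 15.0 ± 0.473 FPKM in DSS against 11.0 ± 0.349 FPKM in controls (adjusted p = 0.0925). Both were singled out after their values were seen. On the opposing side, the H3K4 demethylase Kdm5a had 4.28, 5.48 and 5.24 FPKM in DSS against 3.55, 3.41 and 3.59 FPKM in controls. Its groups did not overlap either, higher in DSS as for 25.6% of all genes tested (log2 difference 0.40 ± 0.16 SE, adjusted p = 0.153). Kdm5b, Kdm5c on the X chromosome and Kdm5d on the Y chromosome overlapped between the groups, with log2 differences of 0.21, -0.19 and -0.11.

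**Figure D3:**
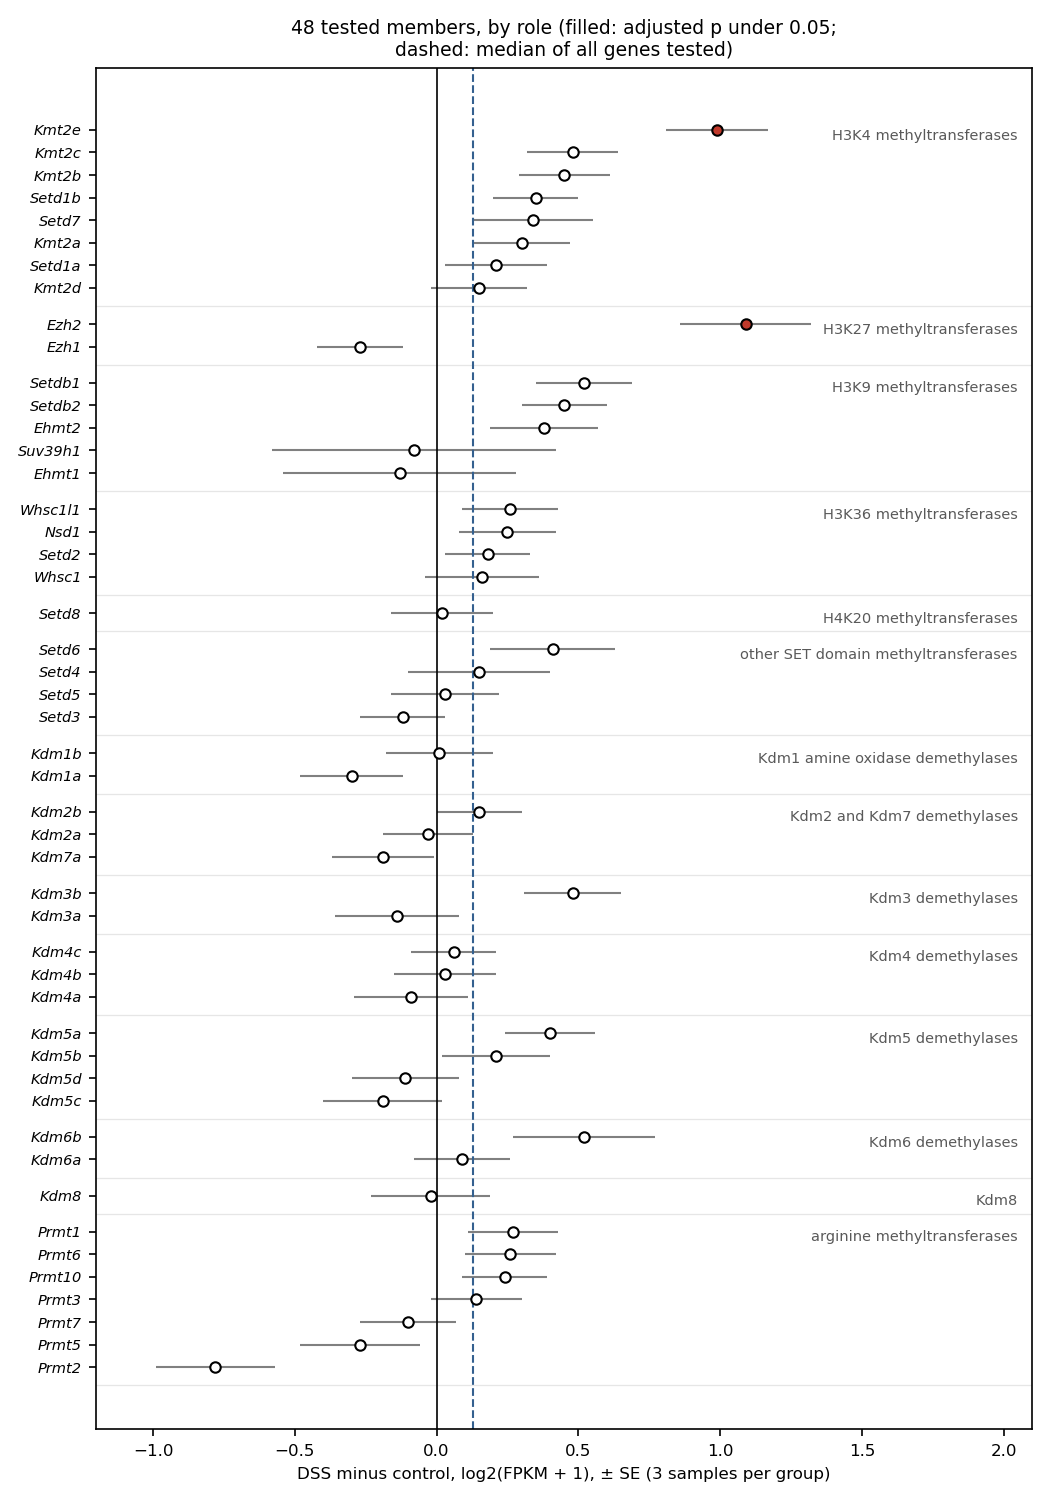
Difference between DSS and control colon on the log2(FPKM + 1) scale with its standard error for the 48 tested members, grouped by role; filled points passed the test (adjusted p under 0.05) and the dashed line is the median of all genes tested, 0.13. The 8 genes of the H3K4 group lie to the right of 0, the Kdm genes lie on both sides, and Prmt2 lies farthest to the left.

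Among the H3K9 methyltransferases none passed, and 2 of 5 tested were at an unadjusted limma p under 0.05. Setdb1, which silences retroelements with KAP1, had 7.16, 7.09 and 9.72 FPKM in DSS against 5.36, 4.93 and 5.39 FPKM in controls (log2 difference 0.52 ± 0.17 SE, adjusted p = 0.105). Setdb2 had 2.55, 2.6 and 2.67 FPKM in DSS against 1.66, 1.57 and 1.69 FPKM in controls (log2 difference 0.45 ± 0.15 SE, adjusted p = 0.104). Both genes had groups that did not overlap, higher in DSS as for 25.6% of all genes tested. The log2 ratio of Setdb1 to Setdb2 was 1.60 ± 0.23 in DSS and 1.67 ± 0.02 in control colon (two-sided exact permutation test, p = 0.6). Setdb1 has a near-identical copy among the annotated transcripts, and its exons share bases with Cers2 on the other strand, so its values are uncertain. Cers2 was at 56.5 ± 3.2 FPKM in DSS against 41.1 ± 4.59 FPKM in controls.

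G9a and GLP, the Ehmt2 and Ehmt1 products, form one H3K9 dimethylating enzyme, and neither transcript passed the test. Ehmt2 was at 22.9 ± 2.19 FPKM in DSS against 17.6 ± 3.87 FPKM in controls (adjusted p = 0.227). Ehmt1 had 6.15, 1.94 and 2.12 FPKM in DSS 1, 2 and 3, against 3.75, 1.92 and 5.14 FPKM in control 1, 2 and 3. It ranged over a wide span in both groups, with a standard error of 0.41 on its log2 difference of -0.13, which lay above 0 without DSS 2 (0.10), DSS 3 (0.06) or control 3 (0.11). The log2 ratio of Ehmt2 to Ehmt1 overlapped between the groups (difference 0.58, two-sided exact permutation test, p = 0.3) and its difference was 1.05 without DSS 1 and 0.33 without DSS 3. Suv39h1, the H3K9 enzyme of constitutive heterochromatin, had 4.86, 0.581 and 4.31 FPKM in DSS 1, 2 and 3, against 2.16, 3.76 and 2.84 FPKM in control 1, 2 and 3 (log2 difference -0.08 ± 0.50 SE, adjusted p = 0.934, and 0.53 without DSS 2, adjusted p = 0.193). DSS 1 and DSS 3 lay above all controls and DSS 2, the sample with the lowest summed level of proliferation genes, lay below them. Suv39h1 shares 767 bases of exon with Gm14820 on the other strand. Suv39h2 was not tested, with 1.45, 0.727 and 0.823 FPKM in DSS against 0.798, 0.807 and 0.7 FPKM in controls. Of 9 H3K9 partners and readers 0 passed (1 at an unadjusted limma p under 0.05).

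The H3K9 demethylase Kdm3b had 9.04, 8.74 and 8.03 FPKM in DSS against 5.24, 5.47 and 7.1 FPKM in controls. The groups did not overlap, higher in DSS as for 25.6% of all genes tested, control 3 being nearest to DSS (log2 difference 0.48 ± 0.17 SE, adjusted p = 0.114). Its exons share 3468 bases with the lincRNA Gm26538 on the other strand, and the part of that gene in the value was not tested. Its relative Kdm3a, known as a hypoxia-responsive gene, was at 11.0 ± 2.99 FPKM in DSS against 12.1 ± 1.88 FPKM in controls (adjusted p = 0.714). The Kdm4 enzymes of lysines 9 and 36 lay close to no difference, with log2 differences of -0.09 for Kdm4a, 0.03 for Kdm4b and 0.06 for Kdm4c, all below 0 when scaled by upper quartile or by median of ratios. Kdm4d was not tested and was listed at 0 in the 3 controls and in DSS 1, with 0.0406 and 0.234 FPKM in DSS 2 and DSS 3.

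The H3K36 methyltransferases Setd2, Nsd1, Whsc1 (Nsd2) and Whsc1l1 (Nsd3) had log2 differences between 0.16 and 0.26 (median 0.22, and 0.06 under upper-quartile scaling), and none passed the test (0 at an unadjusted limma p under 0.05). Setd2, which adds the third methyl group to lysine 36, had 7.99, 7.52 and 7.64 FPKM in DSS against 6.54, 6.23 and 7.33 FPKM in controls. It was the member of this group whose ranges did not overlap, by a narrow gap and higher in DSS as for 25.6% of all genes tested (adjusted p = 0.454). The H3K36 demethylases Kdm2a and Kdm2b were at 8.36 ± 0.956 and 1.69 ± 0.0917 FPKM in DSS against at 8.54 ± 0.8 and 1.43 ± 0.123 FPKM in controls. Kdm7a had a log2 difference of -0.19 ± 0.18 SE. Kdm8, the least abundant tested member, had a mean of 1.13 FPKM over all samples.

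The most abundant members did not pass the test. Setd3, the methyltransferase of an actin histidine, was at 41.9 ± 4.64 FPKM in DSS against 45.7 ± 5.14 FPKM in controls. It has 2 near-identical copies among the annotated transcripts. Setd8 (Kmt5a), which adds a single methyl to lysine 20 of histone H4, was at 41.3 ± 1.91 FPKM in DSS against 41.1 ± 8.15 FPKM in controls. Prmt1, the main enzyme of asymmetric arginine dimethylation, was at 45.2 ± 4.65 FPKM in DSS against 37.4 ± 4.98 FPKM in controls (adjusted p = 0.306). These and Ehmt2 were the 4 tested members with a mean of 20 FPKM or more, and 39 of 48 had a mean under 10 FPKM. Setd5 and Setd4 had log2 differences of 0.03 and 0.15, and Setd6, which methylates the NF-kappaB subunit RelA, had 0.41 ± 0.22 SE (adjusted p = 0.261). The LSD1 gene Kdm1a was at 11.1 ± 2.29 FPKM in DSS against 13.7 ± 1.28 FPKM in controls, and Kdm1b at 13.4 ± 2.47 and 13.3 ± 1.73 FPKM. Kdm1b shares 505 bases of exon with Dek on the other strand. Dek was at 50.6 ± 5.6 FPKM in DSS against 37.4 ± 8.25 FPKM in controls. Of 8 tested LSD1 corepressor partners 0 passed, with 2 at an unadjusted limma p under 0.05. The deacetylase gene Hdac1, singled out after its values were seen, was at 115 ± 29.9 FPKM in DSS against 62.4 ± 7.44 FPKM in controls (adjusted p = 0.0523).

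Among arginine methyltransferases Prmt2 stood lowest. Prmt2, a type I enzyme and nuclear receptor coactivator, had 4.01, 3.06 and 3.98 FPKM in DSS 1, 2 and 3, against 5.2, 8.51 and 7.78 FPKM in control 1, 2 and 3. The groups did not overlap, lower in DSS as for 9.51% of all genes tested, and control 1 was nearest to DSS (log2 difference -0.78 ± 0.21 SE, limma adjusted p = 0.0628). Under upper-quartile scaling it passed (log2 difference -0.93, adjusted p = 0.027), as it did under median-of-ratios scaling (-0.91, adjusted p = 0.0276). Prmt1, Prmt6 and Prmt10 (Prmt9) lay higher in every DSS sample than in any control, as did 25.6% of all genes tested. Their log2 differences were 0.27, 0.26 and 0.24, with limma adjusted p between 0.306 and 0.342. Prmt5, the main enzyme of symmetric dimethylation, was at 10.5 ± 2.79 FPKM in DSS against 12.6 ± 1.19 FPKM in controls. The log2 ratio of Prmt5 to Prmt1 was -1.73, -2.46 and -2.23 in DSS and -1.45, -1.54 and -1.7 in control colon, lower in every DSS sample, with DSS 1 next to the controls (two-sided exact permutation test, p = 0.1, and 0.4 adjusted over 8 pairs). Prmt3 and Prmt7 overlapped between the groups, and Prmt8, known from brain, was listed at 0 in 4 of 6 samples. Wdr77, the partner of Prmt5, was at 10.6 ± 1.45 FPKM in DSS against 7.55 ± 0.75 FPKM in controls (adjusted p = 0.132). It was one of 7 partners of which 0 passed (4 at an unadjusted limma p under 0.05, as were 28.3% of all genes tested).

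**Figure D4:**
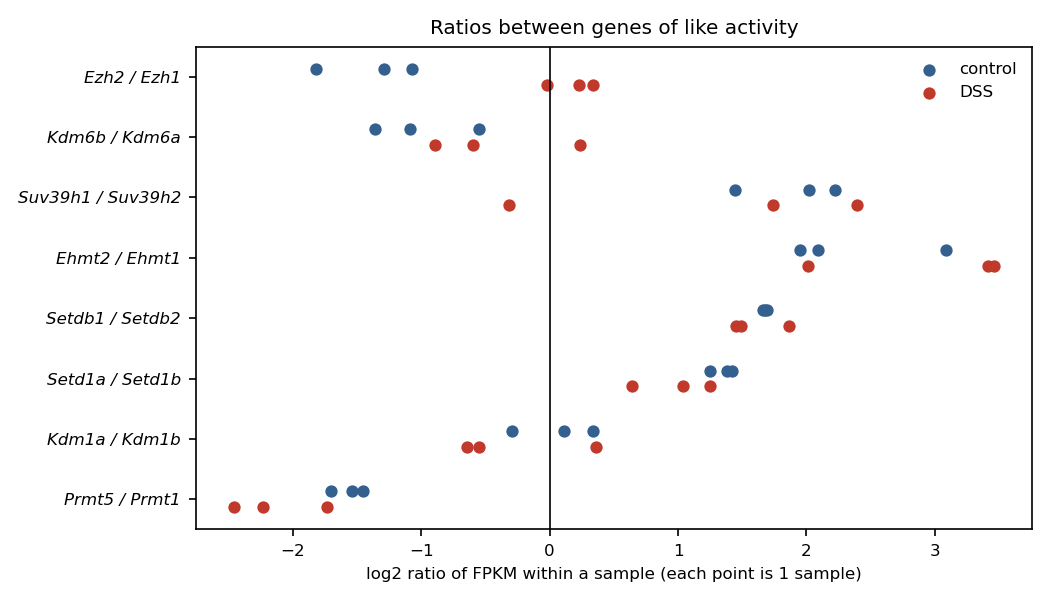
The log2 ratio of FPKM between the genes of 8 pairs, each point being 1 sample, controls in blue and DSS in red. The groups are apart for Ezh2 to Ezh1, where DSS lies between -0.02 and 0.34 and controls between -1.82 and -1.07, and for Prmt5 to Prmt1, and overlap for the other 6 pairs.

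Across all members, 15 of 48 lay higher in every DSS sample than in any control and 2, Ezh1 and Prmt2, lay lower. These are 31.2% and 4.17% of the tested members, against 25.6% and 9.51% of all genes tested. The 15 include Setd1b, which was tested only because its DSS samples reached 1 FPKM. The median log2 difference was 0.15 for members and 0.13 for all genes, with 33 of 48 and 7867 of 12348 above 0. Members grouped as lysine methyltransferases included Setd3, a histidine enzyme, and Kmt2e, with no established activity. That group had a median of 0.25 with 20 of 24 above 0, and Kdm genes a median of 0.01 with 9 of 17 above 0. Both medians moved with the scaling. Under upper-quartile scaling, where the median of all genes was -0.02, they were 0.10 with 18 of 24 above 0 and -0.11 with 5 of 17 above 0. Under median-of-ratios scaling they were 0.12 and -0.09. No test compared these groups. Long transcripts were common, with a median longest transcript of 5416 bases against 3178 over 12242 genes with a length. The 21 tested members of at least 6000 bases had a median log2 difference of 0.25 and the other 27 a median of 0.03, while over all genes the medians were 0.15 and 0.13. Spearman's rho of length and log2 difference was 0.256 across the 48 members and -0.001 across all genes, as a description over genes that share the same 6 samples.

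Other genes of the same chemistry gave 1 call. Of 11 further methyltransferases tested, Mecom (PRDM3), a zinc finger protein reported to methylate H3K9, rose, from 13.2 ± 0.604 to 21.3 ± 3.13 FPKM (log2 difference 0.64 ± 0.16 SE, limma adjusted p = 0.0497). Its adjusted p lay between 0.0239 and 0.166 over all alternatives, and it missed the threshold in 13 of 15. Dot1l, the H3K79 methyltransferase, and Carm1 (PRMT4) had log2 differences of -0.14 and 0.09. Of 8 further JmjC genes 0 passed (2 at an unadjusted limma p under 0.05). Of 9 tested genes of methyl donor supply 0 passed (3 at an unadjusted limma p under 0.05). Mat2a, which makes S-adenosylmethionine, had 81.5, 137 and 142 FPKM in DSS 1, 2 and 3, against 77.3, 55.0 and 75.3 FPKM in control 1, 2 and 3. Every DSS sample lay above the controls, DSS 1 by little (adjusted p = 0.101), and without DSS 1 it passed (log2 difference 1.01, adjusted p = 0.0161).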

How the data were processed

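RNA sequencing of 6 mouse colon samples, 3 DSS and 3 control, was analysed from the values the authors deposited, and these are gene-level FPKM per the file headers. The submitters' processing notes name TopHat2 2.1.1 and mm10. Which program and annotation gave the FPKM is not given in the sources used here. Non-directional library synthesis is named in the labels' protocols, so reads of overlapping genes are shared. FPKM sums were 609544 to 678076 per sample. Ratios of low values between samples did not pile up at fixed steps (1.58% of genes in the fullest bin), so the depth behind each value is unknown. The files held 27 rows named as dates and 4 sharing a name, none a member.

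The 12348 genes that reached 1 FPKM in 3 samples or more were fitted as log2(FPKM + 1) by group in limma 3.58.1 under R 4.3.3 (robust moderation with trend, two-sided p, Benjamini-Hochberg adjustment, threshold 0.05), the form the design gave for FPKM. Fold changes on this scale understate those of low genes. Simulated data for this comparison with 12348 genes, 200 of them changed, returned 40.5% of 2-fold and 84% of 4-fold changes, with 4.54% of calls false. Members described in full were those past the threshold and those with the smallest p up to 12, besides both genes of 8 pairs. Members and lists were chosen with earlier results of these data known. Positions and overlaps came from GENCODE vM21 on GRCm38, in which all 51 members were matched. Exons of 23 members overlapped another gene, and 6 had a near-identical copy (BLAST+ 2.17.0, at least 95% identity over 200 bases). Promoters were RefSeq's. Plots used matplotlib 3.10.9 and Python 3.11.15. Alternatives covered pseudocounts, filters, scalings, moderation, the replicate number as a block and each sample left out.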

Additional observations from a re-analysis of the deposited data

How the results depend on the processing

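Scaling moved the split of calls over all genes. The 783 higher and 316 lower (71.2% higher) became 505 and 536 (48.5% higher) under upper-quartile and 536 and 487 (52.4% higher) under median-of-ratios scaling, as the median log2 difference of all genes went from 0.13 to -0.02 and 0.01. Leaving out 1 sample gave 191 to 972 higher and 58 to 584 lower, the fewest higher without DSS 3 and the fewest lower without control 2. Of the members, 2 higher and 0 lower became 1 higher (Kmt2e) without the filter on low values and 1 lower (Prmt2) with either of those scalings. Leaving out 1 sample gave between 0 and 2 higher, 0 without DSS 3 or without control 1, 2 or 3, where fewer samples were fitted. The log2 difference was 0.87 to 1.25 for Ezh2 and 0.84 to 1.13 for Kmt2e over all alternatives. The 12 members called or with the smallest p kept their direction in every alternative in which they were tested. Setd1b was not tested without DSS 1, DSS 2 or DSS 3, where it fell below the filter. Of the pair members, Kdm6a (0.09) lay below 0 when scaled by upper quartile (-0.06) or median of ratios (-0.04). Kdm1b (0.01) was -0.05 scaled to equal sums, -0.16 and -0.13 under those scalings, and -0.09 to 0.16 leaving out 1 sample. Leaving out 1 sample gave -0.42 to 0.53 for Suv39h1 and -0.54 to 0.11 for Ehmt1. Of the pairs, the difference of the log2 ratio of Suv39h1 to Suv39h2, -0.62, ran from -1.18 without DSS 3 to 0.17 without DSS 2. That of Setdb1 to Setdb2, -0.07, ran from -0.21 without DSS 3 to 0.0 without DSS 2 and was 0.02 with a pseudocount of 0.5. Leaving out 1 sample gave differences of 0.25 to 0.82 for Kdm6b to Kdm6a, 0.33 to 1.05 for Ehmt2 to Ehmt1, -0.65 to -0.15 for Kdm1a to Kdm1b and -0.51 to -0.20 for Setd1a to Setd1b, from 0.58, 0.58, -0.33 and -0.37. With the replicate number as a block 640 genes were higher and 255 lower, and Ezh2 and Kmt2e passed. Same-numbered samples shared deviations only weakly (correlations of 0.082, 0.129 and 0.003). DSS 1 and DSS 2 each correlated best with the control of the same number, and DSS 3 with control 1, at 0.034. The labels name 2 groups only, and the numbers were not taken as pairs. At this sample number 40.5% of simulated 2-fold changes were found, with 200 of 12348 genes changed. The data gave 1099 calls, and the adjusted threshold depends on the share changed, so 40.5% need not hold here. A member that was not called may still differ.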
